A study of Drosophila melanogaster with 26 samples.

Results

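The genes described are 5 of the 14659 features of the table, taken by name: the cytoplasmic actins Act42A and Act5C, and cib, chic and tsr, which encode proteins that bind actin. All 5 were present in every library, and all 5 passed the filter on low values that left 2428 features for testing (16.6%). In these larvae Act42A and cib were the 2 members with the greatest differences between diets. Averaged with equal weight over the 4 sets of libraries, Act42A was lower on high sugar by a log2 change of -1.57 ± 0.12 (SE) and cib by -1.47 ± 0.24. The difference was smaller for chic at -0.55 ± 0.11, Act5C at -0.41 ± 0.10 and tsr at -0.30 ± 0.09. In w1118 cg libraries 49-54 every high-sugar library lay below every control library for all 5 genes, beside 16.8% of all tested features. This held for Act42A, Act5C and cib in w1118 r4 (10.1% of all tested features) and for Act42A and chic in 60100 r4 (12.4%). It held for no member in w1118 cg libraries 13-21 (17.2%). The members were chosen by their diet change in these same libraries, so that change is given as a description, with no test.

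RNA came from the fat body, the larval organ that stores fat and glycogen and has roles like those of liver and adipose tissue, of female Drosophila melanogaster in the wandering stage of the last larval instar. Larvae ate a semi-defined food with 0.15 M sucrose (control, 13 libraries) or 0.7 M sucrose (high sugar, 13 libraries). Wild-type fathers of the VDRC stocks w1118 (stock 60000) or 60100 were crossed to driver females that carried UAS-Dcr2 on X with cg-GAL4 or r4-GAL4. All groups therefore share UAS-Dcr2 and a GAL4 driver, and no group is free of them. As background, r4-GAL4 is used as a fat body driver, while cg-GAL4 is active in both fat body and haemocytes, the blood cells of the larva.

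The library numbers in the titles form 4 sets, and each set holds both diets. Set 13-21 and set 49-54 are both w1118 with cg, each with 3 control and 3 high-sugar libraries. Set 55-63 is w1118 with r4 (3 and 3), and set 67-92 is 60100 with r4 (4 and 4). Fat bodies were dissected by hand or sheared and spun down, and the labels do not say which was done for which library. The labels also do not say that libraries of a group came from separate groups of larvae, so every p-value measures only the spread between these libraries.

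Each value is a multiple of the upper quartile of its own library, so that 1 is the value at that quartile. Changes are on the scale log2(value + 1), which understates the change of low genes. The sets were scaled over different features, so levels were compared within a set and not between sets. Depth is unknown, and 6183 to 8709 features were above 0 in a library. The tissue label was checked against 11 fat body genes such as those for larval serum proteins, whose summed value was at least 5307 in every library. RNA of another tissue was also high in set 13-21. There 8 salivary gland genes summed to between 2178 and 6046, and the fat body genes to between 7091 and 9701. In the other sets the salivary gland sum was between 5.58 and 754. Libraries 67 and 83 (SD of the log2 difference 0.227) and libraries 75 and 91 (0.262) were more alike than any other pair within a group (0.326 or more). None were identical.

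Actin exists as free monomers and as filaments that grow and shrink at their ends. Filaments shape the cell cortex and carry myosin motors. Profilin and beta-thymosin proteins hold or deliver monomers, and cofilin severs filaments and returns monomers to the pool. In the fly, Act5C and Act42A encode the cytoplasmic actins of most cells, and 4 other genes encode actins of muscle. Act5C is often used as a reference gene. An annotation of a later build than the dm3 of the table places Act5C and cib on X, chic on 2L, and Act42A and tsr on 2R.

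Act42A had the most consistent separation of the diets. In set 13-21 its value was 6.40, 4.40 and 4.27 in control libraries and 3.91, 4.05 and 5.18 on high sugar. In set 49-54 it was 9.97, 19.9 and 22.2 in control libraries and 1.68, 0.854 and 1.51 on high sugar. The diets overlapped in the former set and were far apart in the latter, although both have the same cross. In set 55-63 the control values were 7.02, 5.28 and 6.17 and the high-sugar values 0.857, 1.03 and 1.06. In set 67-92 the control libraries 67, 68, 83 and 84 stood at 6.97, 9.19, 6.95 and 8.78, and the high-sugar libraries 75, 76, 91 and 92 at 2.25, 1.45, 2.92 and 3.77. In both sets with r4 every high-sugar library lay below every control library.

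The ratio of the group means of Act42A, control over high sugar, was 1.15 in set 13-21, 12.9 in set 49-54, 6.28 in set 55-63 and 3.07 in set 67-92. The log2 change was -0.15 ± 0.24, -2.91 ± 0.24, -1.85 ± 0.24 and -1.35 ± 0.21 in the same order. Without library 49, the control library with the lowest value, the change in set 49-54 was -3.25. The place of Act42A among the features detected in a library does not depend on the divisor of that library. In set 49-54 it went from between the 95.1 and 97.6 percentile in control libraries to between 64.8 and 77.2 on high sugar. In set 13-21 it lay between 88.7 and 92.03 in control libraries and between 88.1 and 90.95 on high sugar.

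Act5C stood above Act42A in every library on the scale of the table, which is not stated to be per length, and its diet difference was smaller. Its values in set 13-21 were 34.9, 29.4 and 45.0 in control libraries and 33.2, 35.5 and 44.6 on high sugar. In set 49-54 they were 58.3, 69.7 and 62.4 in control libraries and 37.6, 31.6 and 34.2 on high sugar. The former diets overlapped, and in the latter set all high-sugar libraries were below all control libraries. In set 55-63 Act5C stood at 77.5, 64.6 and 79.6 in control libraries and at 46.2, 52.03 and 56.4 on high sugar, again with no overlap. In set 67-92 the control values were 109, 82.9, 82.0 and 165, and the high-sugar values 80.8, 90.2, 74.1 and 89.2. Control library 84 stood high there, and the diets overlapped.

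For Act5C the log2 change was 0.06 ± 0.20 in set 13-21, the only change above 0 among the 20 combinations of 5 genes and 4 sets. It was -0.86 ± 0.20 in set 49-54, -0.51 ± 0.20 in set 55-63 and -0.33 ± 0.18 in set 67-92. On the linear scale the control mean was 1.84 times the high-sugar mean in set 49-54 and 1.43 times in set 55-63. Act5C stayed between the 97.3 and 99.4 percentile of detected features in every library of every set.

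Act42A thus made up a smaller share of the summed values of both cytoplasmic actins on high sugar. In set 49-54 the share was 21.01% ± 5.89 (SD, n = 3) in control libraries and 3.71% ± 0.935 (n = 3) on high sugar. It was 7.69% ± 0.563 and 1.87% ± 0.0581 in set 55-63 (n = 3 each), and 7.21% ± 2.18 and 3.04% ± 1.13 in set 67-92 (n = 4 each). In these 3 sets the diets did not overlap. In set 13-21 the share was 12.4% ± 3.46 and 10.4% ± 0.132 (n = 3 each), with overlap. A ratio within a library does not use the divisor of the library. The coding sequences of both genes are nearly identical, so reads could have been assigned to the wrong copy, and the share is uncertain for that reason.

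**Figure D1:**
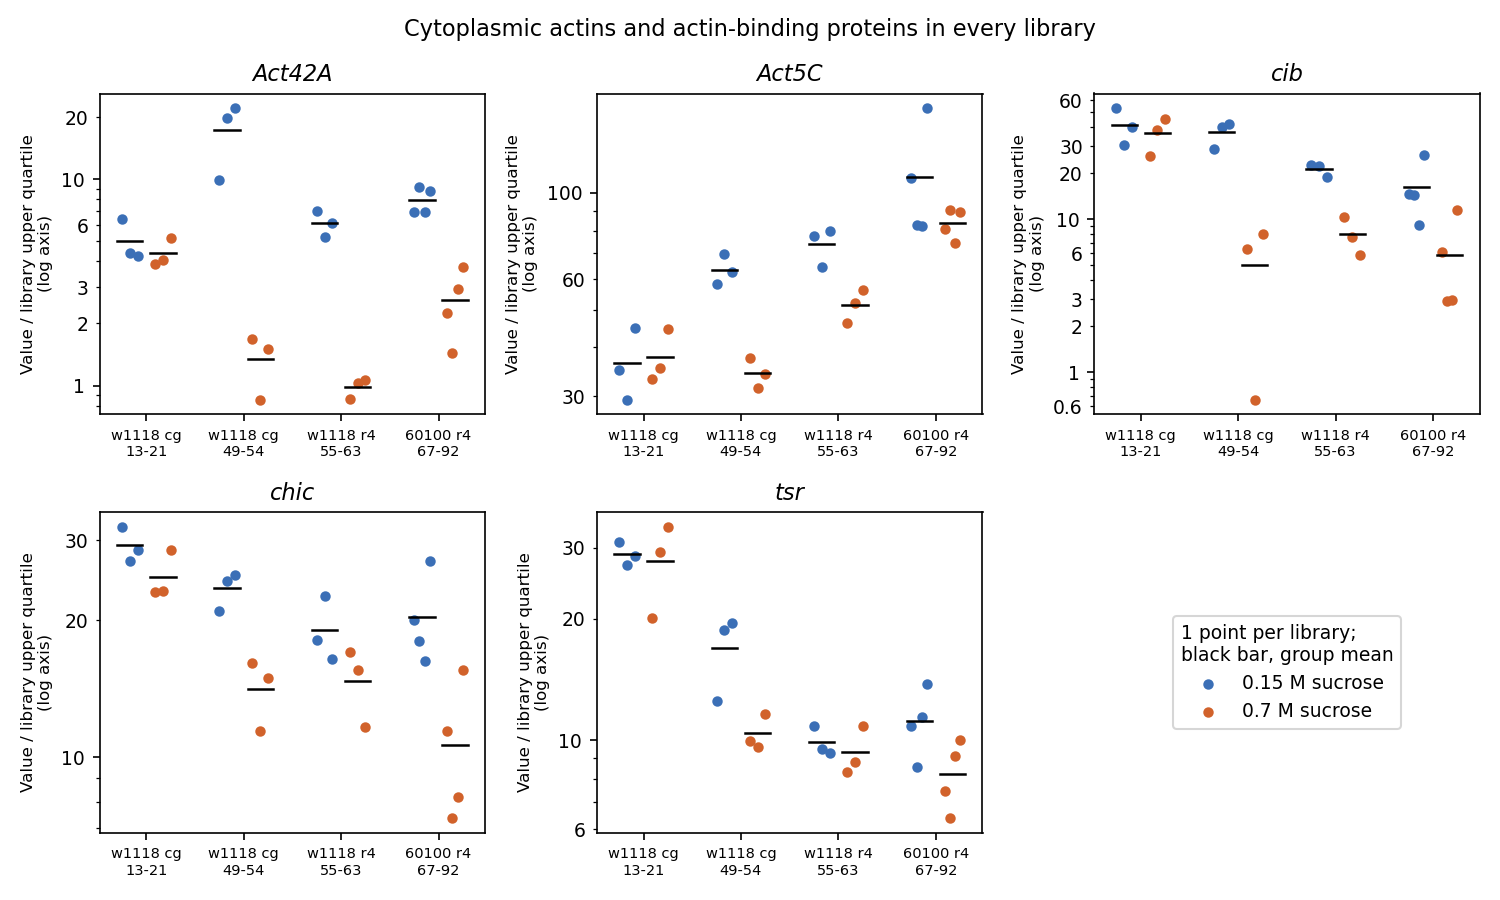
Value of each of the 5 genes in every library, as a multiple of the library's upper quartile on a log axis, by set of libraries and diet; points are libraries and black bars are group means. In w1118 cg libraries 49-54 all high-sugar points lie below all control points for each gene, and in libraries 13-21 the diets overlap for each gene.

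cib encodes a protein of beta-thymosin repeats (ciboulot) that binds actin monomers. In set 13-21 its values were 53.2, 30.4 and 39.8 in control libraries and 25.7, 38.3 and 45.1 on high sugar. In set 49-54 they were 28.8, 40.0 and 41.9 in control libraries and 6.44, 0.664 and 7.996 on high sugar. High-sugar library 53 was about an order of magnitude below the other 2 of its group. In set 55-63 cib stood at 22.6, 22.4 and 18.9 in control libraries and at 10.3, 7.72 and 5.89 on high sugar. In set 67-92 the control values were 14.6, 14.4, 9.13 and 26.4, and the high-sugar values 6.12, 2.95, 2.99 and 11.5. The diets did not overlap in sets 49-54 and 55-63, and overlapped in set 67-92 through library 92 on high sugar and library 83 on control.

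The log2 change of cib was -0.17 ± 0.50 in set 13-21, -2.96 ± 0.50 in set 49-54, -1.34 ± 0.50 in set 55-63 and -1.39 ± 0.43 in set 67-92. Its SE was the widest of the 5 genes. Without library 53 the change in set 49-54 was -2.19, still the most negative of the 4 sets. The control mean was 7.32 times the high-sugar mean in set 49-54, 2.67 times in set 55-63 and 2.75 times in set 67-92.

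chic encodes profilin (chickadee), which brings monomers to growing filament ends. In set 13-21 chic stood at 32.2, 26.98 and 28.5 in control libraries and at 23.1, 23.2 and 28.5 on high sugar. In set 49-54 it was 20.95, 24.5 and 25.2 in control libraries and 16.1, 11.4 and 14.98 on high sugar. Only the latter set was free of overlap. In set 55-63 the control values were 18.1, 22.7 and 16.4 and the high-sugar values 17.1, 15.5 and 11.7. In set 67-92 they were 19.99, 18.004, 16.3 and 27.1 on control and 11.4, 7.35, 8.20 and 15.6 on high sugar. The lowest control library of set 67-92 lay just above the highest high-sugar library, and set 55-63 overlapped.

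chic was the member with its most negative log2 change in set 67-92, at -0.90 ± 0.19. The change was -0.70 ± 0.22 in set 49-54, -0.35 ± 0.22 in set 55-63 and -0.22 ± 0.22 in set 13-21.

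tsr encodes cofilin (twinstar), which severs filaments. In set 13-21 its values were 31.1, 27.1 and 28.7 in control libraries and 20.1, 29.3 and 33.9 on high sugar. In set 49-54 they were 12.5, 18.8 and 19.6 in control libraries and 9.95, 9.61 and 11.6 on high sugar. In the latter set the highest high-sugar library lay just below the lowest control library. In set 55-63 tsr stood at 10.9, 9.47 and 9.27 in control libraries and at 8.34, 8.81 and 10.8 on high sugar. In set 67-92 it was 10.8, 8.57, 11.4 and 13.8 in control libraries and 7.46, 6.40, 9.14 and 10.03 on high sugar. The diets overlapped in all sets but 49-54. The log2 change of tsr was -0.63 ± 0.20 in set 49-54, -0.39 ± 0.17 in set 67-92, -0.08 ± 0.20 in set 55-63 and -0.09 ± 0.20 in set 13-21.

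Every high-sugar library lay below every control library for 5 of 5 genes in set 49-54, beside 16.8% of all tested features. The count was 3 of 5 in set 55-63 (background 10.1%), 2 of 5 in set 67-92 (12.4%) and 0 of 5 in set 13-21 (17.2%). Act42A alone was so in all 3 sets other than 13-21, as were 1.61% of all tested features. Since the diet contrast chose the genes, these counts describe them and are no evidence about them. From the most negative of 2428 mean changes, Act42A ranked 6, cib 9, chic 118, Act5C 194 and tsr 295.

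Ratios between members in the same library differed too. The ratio of cib to chic was 1.56 ± 0.159 (SD, n = 3) in control libraries of set 49-54 and 0.331 ± 0.245 (n = 3) on high sugar, and 1.13 ± 0.132 and 0.536 ± 0.0607 in set 55-63. Neither pair of groups overlapped. The ratio of chic to tsr overlapped between diets in all 4 sets, with 1.43 ± 0.221 and 1.37 ± 0.225 in set 49-54. Against Act5C, tsr was higher on high sugar in set 55-63, with ratios of 0.134 ± 0.0159 and 0.181 ± 0.0114 and no overlap.

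The sizes of the diet change in the sets were compared as values. The members were chosen by the diet change within each set, so these differences carry no test. The 2 sets of w1118 with cg share their cross and differ in library numbers. The diet change in set 49-54 was more negative than in set 13-21 by -2.76 ± 0.34 (SE, log2) for Act42A and by -2.78 ± 0.70 for cib. The difference was -0.92 ± 0.29 for Act5C, -0.55 ± 0.28 for tsr and -0.48 ± 0.31 for chic. After quantile normalization it was -1.45 for Act5C, -0.944 for tsr and -0.843 for chic. What else differed between these sets is not given in the labels, so library numbers and any difference in handling cannot be told apart.

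The change of Act42A in set 13-21 was less negative than in set 55-63 by 1.70 ± 0.34. Its change in set 67-92 was more negative than in set 13-21 by -1.198 ± 0.32, and less negative than in set 49-54 by 1.56 ± 0.32. Its change in set 49-54 was more negative than in set 55-63 by -1.06 ± 0.34. Between the r4 sets, 55-63 and 67-92, the difference for Act42A was 0.50 ± 0.32. The library numbers of 60100 r4 fall into 67 to 76 and 83 to 92. The change of Act42A was -1.68 ± 0.28 in the former and -1.03 ± 0.28 in the latter, and that of cib was -1.55 ± 0.63 and -1.24 ± 0.63.

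**Figure D2:**
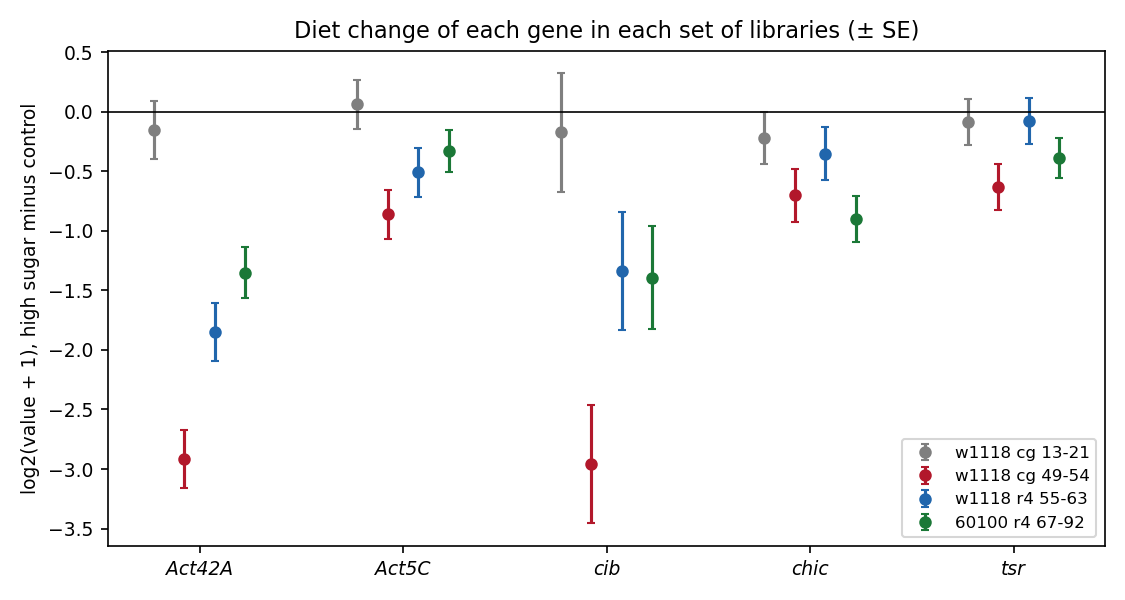
Difference in log2(value + 1) between high-sugar and control libraries for each gene in each set, with its SE from the fit over 26 libraries. Act42A and cib lie near -3 in w1118 cg libraries 49-54, while all 5 genes lie between -0.22 and 0.06 in libraries 13-21.

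Genes that act on actin were examined through 7 lists, of which 63 genes were matched and 25 were tested. In the mean over sets, 10 of the 25 fell on high sugar and 2 rose, beside 16.8% lower and 29% higher among all tested features. The median change of the 25 was -0.0726, beside 0.0593 for all tested features. The counts differed by set. In set 13-21 none passed in either direction by limma (background 5.85% lower and 2.14% higher). At an unadjusted limma p under 0.05, 0 were lower and 1 higher, beside 311 lower and 169 higher of all 2428 tested features. In set 49-54, 8 fell and 1 rose (10.2% and 24.2%), in set 55-63, 1 fell and 2 rose (5.19% and 17.8%), and in set 67-92, 6 fell and 3 rose (14.8% and 16.8%). The 10 falls became 3 without set 49-54 and 4 without set 67-92.

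Of 4 tested genes for non-muscle myosin II and tropomyosin, 2 fell. sqh, the regulatory light chain, fell by -0.47 ± 0.14 (adjusted p = 0.00849) and was below 0 in 4 of 4 sets. zip, the heavy chain, was at -0.27 ± 0.11 (0.0425), but its call was lost when any of 16 of the 26 libraries was left out, with adjusted p up to 0.0812. Tropomyosin Tm1 was at 0.20 ± 0.13 in the mean (0.203) and rose in set 67-92 by 1.18 ± 0.23 (0.00102). In that set 4 of 5 tested muscle genes also rose, beside 16.8% of all tested features. The part of muscle RNA in the change of Tm1 was not tested.

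Of 10 tested genes of the Arp2/3 complex, which starts branched filaments, and its activators, 2 fell and 1 rose. The activator SCAR fell by -0.42 ± 0.12 (adjusted p = 0.00759), and the subunit gene Arc-p34 fell by -0.15 ± 0.05 (0.0185). The mean value of SCAR, 1.02, was just over the filter. SCAR was still tested in 17 of the 26 fits that left out a library, and passed in those. Its change ran from -0.927 to -0.0026 over the sets. Another subunit gene of the complex, Sop2, rose by 0.40 ± 0.06 (4.37e-05) and was above 0 in 4 of 4 sets. Subunits of the same complex thus moved in opposite directions.

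Of 3 tested genes for monomer binding and severing besides the members, capt, the cyclase-associated protein, fell by -0.16 ± 0.06 (limma adjusted p = 0.0224), a call lost after median-of-ratios scaling (0.0532). Gelsolin (Gel) rose by 0.25 ± 0.08 (0.0111), but stood at 0.0434 (0.623) after quantile normalization. capt went in opposite directions in 2 sets, at -0.59 ± 0.12 in set 49-54 (0.000498) and 0.27 ± 0.10 in set 67-92 (0.0445). Of 4 tested capping and crosslinking genes, moesin (Moe), which ties filaments to the cell membrane, fell by -0.24 ± 0.07 (0.00635). None of the 7 formin and nucleator genes or the 2 genes of the SRF and MRTF list passed the filter on low values.

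Tubulins, which build microtubules and not actin filaments, were taken for comparison, and 3 of 4 tested fell in the mean, beside 16.8% of all tested features. betaTub60D fell by -0.67 ± 0.11 (adjusted p = 3.48e-05), betaTub56D by -0.30 ± 0.09 (0.0105) and alphaTub84D by -0.12 ± 0.04 (0.0297). The call of alphaTub84D was lost after median-of-ratios scaling (0.0917), with a pseudocount of 0.1 (0.0751) and without library 15, 19, 52, 57 or 62 (0.0533 to 0.0606). This count became 1 without set 49-54 or without set 55-63. alphaTub84B was at 0.13 ± 0.07 (0.162). By set, 3 tubulins fell in set 49-54 (10.2% of all tested features), 3 in set 55-63 (5.19%) and 1 in set 67-92 (14.8%). In set 13-21 none passed in limma, with 2 higher at an unadjusted p under 0.05, as were 169 of all 2428 tested features.

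**Figure D3:**
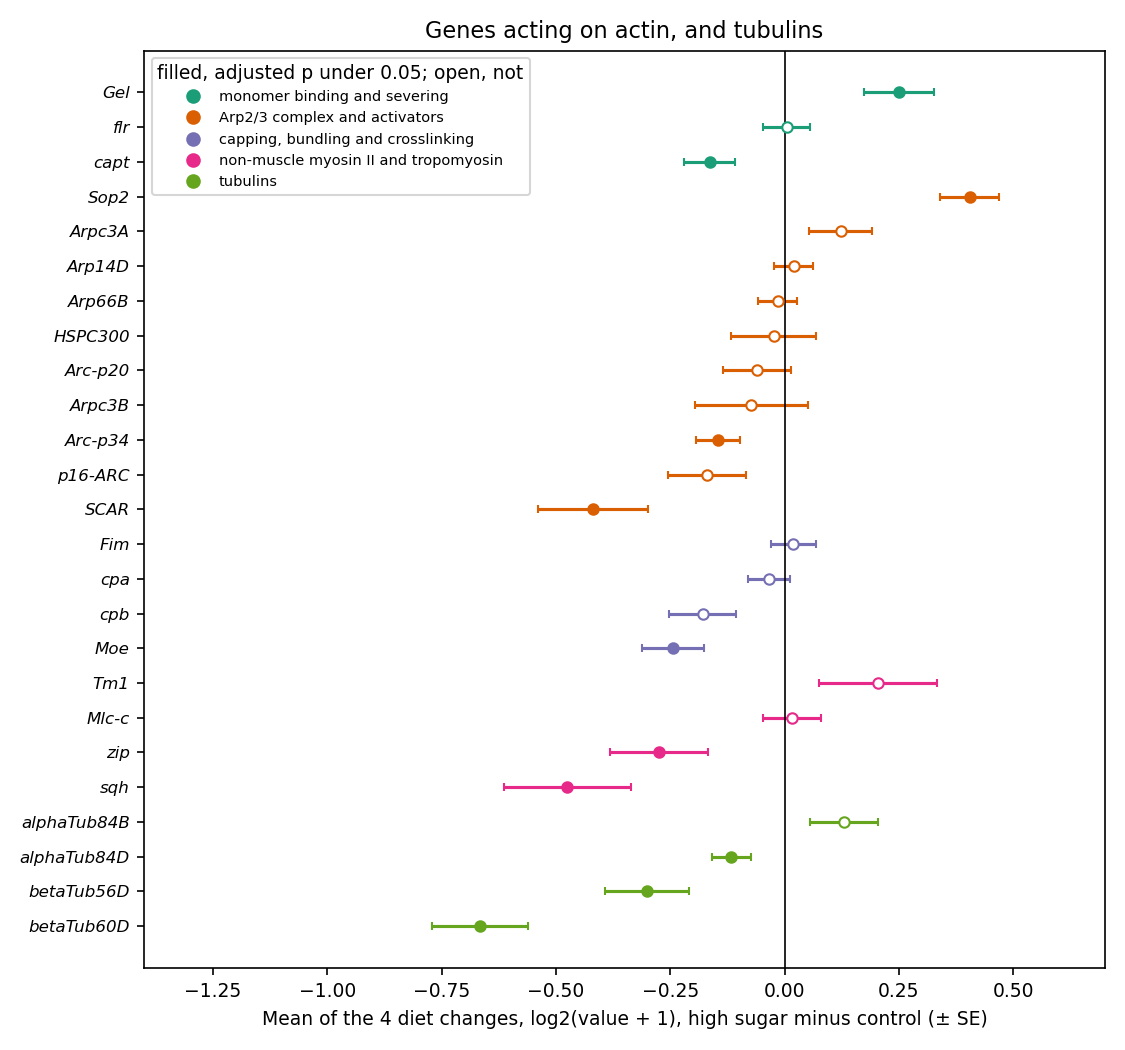
Equal-weight mean of the 4 diet changes in log2(value + 1), with SE, for the tested genes of 4 lists that act on actin and for 4 tubulins; filled points passed an adjusted p of 0.05 in limma over 2428 features. Of the Arp2/3 genes, Sop2 lies to the right and SCAR and Arc-p34 to the left.

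The muscle actins, whose sequences are close to those of the cytoplasmic actins, gave no common direction. Of the 4 genes, Act57B and Act87E were tested. Act57B was at 0.09 ± 0.13 in the mean (limma adjusted p = 0.605), but rose by 0.99 ± 0.23 in set 67-92 (0.00377) and fell by -0.98 ± 0.27 in set 13-21 (0.0271). Act87E was at -0.19 ± 0.08 in the mean (0.0686) and fell by -0.58 ± 0.17 in set 49-54 (0.0129). Reads could be split between all of these copies.

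Haemocytes are rich in actin, and Hml, a clotting protein, and nimC1, a receptor for engulfing bacteria, mark them. Hml stood at 0.250, 0.140 and 0.129 in control libraries of set 13-21 and at 0.220, 0.211 and 0.160 on high sugar. In set 49-54 it stood at 2.42, 1.505 and 2.55 in control libraries and was listed at 0 in 2 high-sugar libraries and at 0.0314 in the other. In set 55-63 Hml was 0.115, 0.627 and 0.106 in control libraries, and on high sugar it was listed at 0 in 2 libraries and at 0.0307 in the other. The diets thus overlapped in set 13-21 and were separate in the other w1118 sets. In set 67-92 Hml was between 0.0817 and 0.163 in control libraries and between 0.0242 and 0.0902 on high sugar, with overlap.

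nimC1 was likewise separate between diets in sets 49-54 and 55-63 and overlapped in the other sets. It was between 0.159 and 0.171 in control libraries of set 13-21 and between 0.142 and 0.169 on high sugar. In set 49-54 it was 0.527, 0.944 and 0.896 in control libraries and was listed at 0 in all 3 high-sugar libraries. In set 55-63 it was 0.440, 0.994 and 0.392 in control libraries and 0.0801, 0.0908 and 0.136 on high sugar. In set 67-92 it was between 0.211 and 0.266 in control libraries and between 0.159 and 0.307 on high sugar, again with overlap.

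Both markers lay below the filter, so they were tested in a fit with no filter on 10094 features. There Hml fell in set 49-54 by -1.63 ± 0.12 (limma adjusted p = 9.46e-09), and nimC1 fell by -0.83 ± 0.10 (3.59e-06). In set 55-63 nimC1 fell by -0.53 ± 0.10 (0.000898), while Hml was at -0.32 ± 0.12 (0.0676). In set 67-92 Hml was at -0.08 ± 0.10 (0.663) and nimC1 at -0.02 ± 0.08 (1), and neither passed in set 13-21. In that fit 1044 features were lower in set 49-54 (10.3%), 1038 in set 55-63 (10.3%), 1404 in set 67-92 (13.9%) and 321 in set 13-21 (3.18%).

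The 4 defining haemocyte genes, Hml, nimC1, eater and He, summed to between 4.91 and 6.69 in control libraries of set 49-54 and between 0.282 and 0.455 on high sugar. In set 55-63 the sum was between 0.581 and 2.30 in control libraries and between 0.0908 and 0.171 on high sugar. In set 13-21 it was between 1.38 and 2.60 and between 1.89 and 2.10. So this sum was lower on high sugar with no overlap in sets 49-54 and 55-63, and overlapped in set 13-21. In set 67-92 the sum was between 0.342 and 0.474 in control libraries and between 0.244 and 0.368 on high sugar, with overlap, and He was at 0 in every library. The members were chosen by their diet change, so their separation between diets was not set against these sums.

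The whole list of 13 haemocyte genes had 12 above 0 in each control library of set 49-54 and 4 to 8 on high sugar. Its sum was between 41.1 and 51.9 and between 22.2 and 24.6 in that set. In set 55-63 the sum was between 35.0 and 42.7 and between 22.9 and 24.9, and in set 67-92 between 35.1 and 54.5 and between 19.1 and 33.4. All 3 sets were free of overlap, and in set 13-21, with sums between 19.7 and 29.1 and between 21.6 and 25.4, the diets overlapped. These sums are mostly nimC2, with a mean of 20.5 over 26 libraries, against at most 2.66 for any other listed gene. In set 67-92 nimC2 was between 20.2 and 42.2 in control libraries and between 7.64 and 22.7 on high sugar, with overlap. In set 55-63 it was between 25.2 and 31.8 and between 17.7 and 19.05, with no overlap, and in set 49-54 it overlapped. The sum in set 67-92 thus mostly follows nimC2 and does not describe the other genes. There eater, Ppn and Sr-CI were lower on high sugar with no overlap, as were 12.4% of all tested features. Their means were 0.046, 0.218 and 0.146 on control and 0.013, 0.0757 and 0.0676 on high sugar, all low values. The other listed genes overlapped between diets in that set. Of 6 tested list members, 5 fell in the mean over sets, beside 16.8% of all tested features, among them CG8193 (the prophenoloxidase gene PPO2) by -1.02 ± 0.12 (limma adjusted p = 1.07e-06). The sixth, Pxn (peroxidasin), was at -0.17 ± 0.10 in the mean (0.174), fell in set 49-54 by -1.41 ± 0.21 (2.23e-05) and rose in set 55-63 by 0.62 ± 0.21 (0.0341). By set, 4 of the 6 fell in set 49-54 (10.2% of all tested features) and 3 in set 55-63 (5.19%). In set 67-92, 1 fell (14.8%), and in set 13-21, 0 (5.85%). CG8193 was at -2.28 in set 49-54, -1.48 in set 55-63, -0.12 in set 67-92 and -0.18 in set 13-21. In bulk RNA, fewer cells of a type and less RNA per cell cannot be told apart, and the part of haemocyte RNA in the diet change of the members was not tested.

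Markers of other tissues also moved with the diet. Of 7 imaginal disc genes and 4 tracheal genes, none was above 0 in any high-sugar library of set 49-54. Fewer features of any kind were above 0 in those libraries than in the control libraries of that set. The same held for the high-sugar libraries of set 55-63 beside its control libraries. The disc sum was between 0.107 and 0.280 in the control libraries of set 49-54, and the tracheal sum between 0.715 and 1.04. In set 55-63 the disc sum was between 0.331 and 0.448 in control libraries and between 0 and 0.0616 on high sugar, and the tracheal sum between 1.17 and 2.29 and between 0.252 and 0.663. In set 67-92 the disc sum was between 0.422 and 0.949 and between 0 and 0.141, and the tracheal sum between 2.26 and 3.34 and between 0.930 and 1.2. Both sums were thus lower on high sugar with no overlap in sets 49-54, 55-63 and 67-92. In set 13-21 the disc sum was higher on high sugar, between 0.142 and 0.293 against 0.0489 and 0.110, and the tracheal sum overlapped.

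Salivary gland genes summed to between 33.8 and 604 in control libraries of set 49-54 and between 5.58 and 18.5 on high sugar, and overlapped between diets in the other sets. In set 13-21 their sum was far higher, between 2178 and 3651 in control libraries and between 2707 and 6046 on high sugar. Midgut genes were lower on high sugar with no overlap in set 49-54 (3.10 to 45.9 against 1.12 to 1.82) and set 55-63 (33.9 to 88.5 against 1.82 to 4.28). Muscle genes were higher on high sugar in set 67-92 (13.1 to 20.6 against 24.6 to 75.2) and lower in set 13-21 (12.9 to 20.7 against 6.43 to 9.92), with no overlap in either. Epidermis and cuticle genes did the same, higher in set 67-92 (53.2 to 125.1 against 126.1 to 247) and lower in set 13-21 (75 to 90.4 against 20.3 to 61.6). Set 13-21 thus had shifts in markers of other tissues. The fat body sum was higher on high sugar in set 49-54, at 11320 ± 932 (SD, n = 3) against 5991 ± 1061 (n = 3), and lower in set 67-92, with no overlap in either. The part of these tissues in the diet change of the members was not tested.

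**Figure D4:**
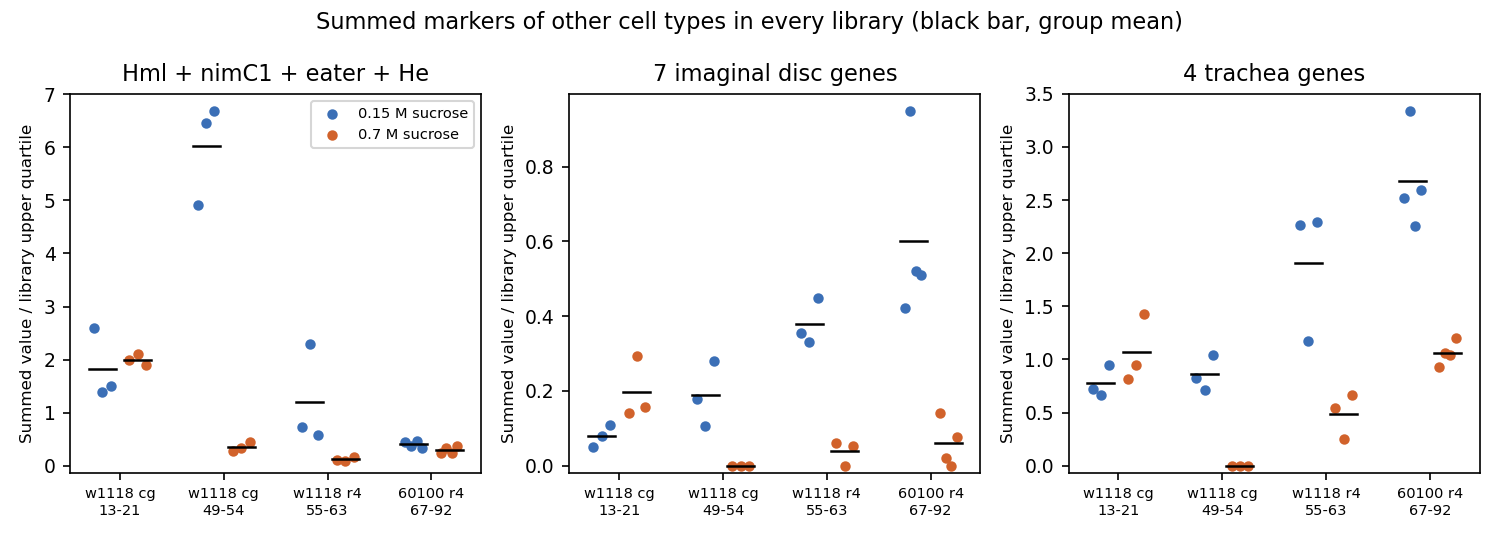
Summed value of 4 defining haemocyte genes, 7 imaginal disc genes and 4 tracheal genes in every library, as multiples of the library's upper quartile, by set and diet; black bars are group means. All 3 sums are lower on high sugar without overlap in libraries 49-54 and 55-63, and the haemocyte sum overlaps between diets in libraries 67-92.

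Whether the members vary with haemocyte genes from library to library was examined apart from diet. Each log2 value was taken as its deviation from the mean of its set and diet, over 26 libraries. None of the 10 pairs of a member with Hml or nimC1 passed (permutation test within groups, adjusted over 10 pairs), with Pearson r from -0.341 to 0.214 and 1 pair at an unadjusted p under 0.05. The lowest p was for Act5C with Hml, with r = -0.341 (permutation p = 0.0224, adjusted 0.224) and a Spearman coefficient of -0.472 (0.0355, adjusted 0.355), and r was -0.283 without libraries 50 and 56. For Act42A with Hml, r was -0.174 (permutation p = 0.698) and the Spearman coefficient -0.072 (0.79), and for cib with Hml r was 0.026 (0.797) and the Spearman coefficient 0.054 (0.78). Within single sets the r of Act42A with Hml ran from -0.777 in set 55-63 to 0.508 in set 13-21. Hml and nimC1 are low in most libraries, so these deviations are small, and a missed threshold does not show that the genes vary independently.

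Among themselves, 7 of 10 pairs of members passed by Pearson r (permutation test, adjusted over 10 pairs), and 2 to 9 did when a library was left out. Of these 7, Act42A with chic (adjusted permutation p = 0.0748), Act5C with cib (0.0799) and cib with tsr (0.0579) did not pass by the Spearman coefficient. As a background, the 95th percentile of r over the other 2427 tested features was 0.389 for Act42A, 0.607 for Act5C, 0.553 for cib, 0.666 for chic and 0.429 for tsr. The closest pair was cib with chic, the genes for ciboulot and profilin, with Pearson r = 0.839 and a Spearman coefficient of 0.881. Each had a permutation p of 1e-05, the smallest that 100000 permutations can give (adjusted 0.0001). Without libraries 84 and 92 the r of cib with chic was 0.785. It was 0.84 in set 13-21, 0.916 in set 49-54, 0.838 in set 55-63 and 0.984 in set 67-92. It lay above the 95th percentile of both genes.

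Act42A varied with tsr at r = 0.683 (permutation p = 0.00165, adjusted 0.00825) and a Spearman coefficient of 0.6246 (0.00342, adjusted 0.0115), and r was 0.6252 without libraries 19 and 49. With cib, Act42A had r = 0.598 (permutation p = 0.00294, adjusted 0.0098) and a Spearman coefficient of 0.629 (0.00344, adjusted 0.0115), and 0.5 without libraries 53 and 92, but -0.365 within set 55-63. These pairs and cib with chic were the 3 that passed after median-of-ratios scaling. The pair of Act42A with tsr was lost without set 49-54 (adjusted p = 0.0973). The pair of Act42A with cib was lost without set 49-54 (0.134), without set 67-92 (0.0515) and without library 53 alone (0.058). Without set 49-54 cib with chic was the pair that still passed. The other 4 passing pairs had r from 0.44 to 0.529, each below the 95th percentile of at least 1 of its genes, and each was lost without at least 1 set. Act42A and Act5C had r = 0.228 (permutation p = 0.216) and a Spearman coefficient of 0.321 (0.147).

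**Figure D5:**
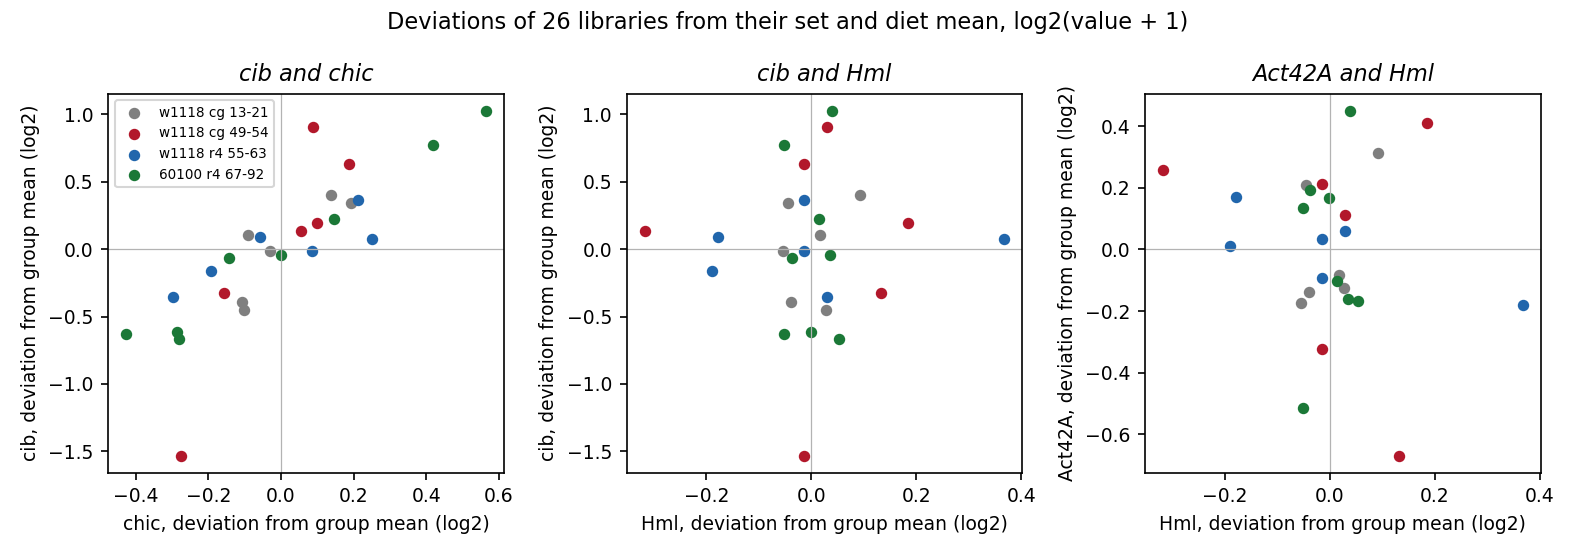
Deviations of log2(value + 1) from the mean of the library's set and diet, 1 point per library and 26 in each panel, for cib against chic, cib against Hml and Act42A against Hml, coloured by set. cib and chic rise together in each set (r = 0.839 over all), while the panels with Hml (r = 0.026 and -0.174) show no common slope.

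The tested genes with the highest within-group r over 26 libraries were listed for each member, as a description. For Act42A they were Pp1-87B, a protein phosphatase subunit (r = 0.691), ics (0.687), tsr (0.683), RpL35, a ribosomal protein (0.655), and p16-ARC, a subunit of Arp2/3 (0.621). For Act5C they were CG34253 (0.859), CG5554 (0.859), the muscle actin Act87E (0.858), CG15917 (0.823) and Dip-B (0.811). For cib they were Rpn5, a proteasome subunit (0.889), chic (0.839), CG7220 (0.802), CG9393 (0.801) and CG6115 (0.783). For chic they were vsg (0.862), Ilp6, an insulin-like peptide made in fat body (0.852), CG3714 (0.849), CG6356 (0.848) and CG31778 (0.842). For tsr they were snRNP-U1 (0.752), His2Av, a histone variant (0.724), p16-ARC (0.712), CG15353 (0.706) and CG30269 (0.704). p16-ARC was the gene outside the members that stood in 2 of these lists. All genes of a library share its divisor, and the part of this in these r values was not tested. Over the other 2427 tested features the median r was between -0.038 (Act42A) and 0.07 (Act5C) for the 5 members.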

How the data were processed

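Per the labels' protocols, RNA of 26 fat body samples was depleted of ribosomal RNA and sequenced. Cufflinks 1.1.0, Bowtie 0.12.7, TopHat 1.3.2 and the build dm3 are listed in the submitters' processing notes; no filter or annotation is named there. The deposited table names no unit. Its values behave as a ratio, as if the authors had divided each library by its upper quartile, set by set: that quartile equals 1 within 2.5e-10 over 9608, 8320, 8467 and 9853 features in sets 13-21, 49-54, 55-63 and 67-92. No label or header states this step. Depth per library is unknown, and 0 can be a failed estimate.

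Groups came from the titles, as 4 sets of library numbers by 2 diets. Values were taken as log2(value + 1). Features whose mean over 26 libraries reached 1 (2428) were fitted with limma 3.58.1 (trend, 8 group means) in R 4.3.3, two-sided, with Benjamini-Hochberg adjustment at 0.05. Deviations from group means were correlated with 100000 two-sided permutations within groups (numpy 2.4.6). Both steps were tested on simulated data. The planned test of set by diet is not given for the members, since the diet change within each set chose them. The members and lists were chosen with earlier results of these data known. Named genes were the 5 members, Hml and nimC1, listed genes passing the mean contrast (at most 4 a list), the muscle actins and the 5 genes most alike to each member. Tm1 and alphaTub84B, which did not pass the mean, CG8193, Pxn, nimC2 and the marker sums were added after their values were seen. 1 list of genes acting on actin counts in the totals, but its genes are not reported here. No sequences were used here.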

Additional observations from a re-analysis of the deposited data

How the results depend on the processing

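No paired analysis was possible because no library number is shared between groups. Of the values for single genes, pairs and contrasts, 456 were counted as unchanged under settings other than leaving out a library. Another 28 lost a call, 5 gained one and 11 moved. For values with a test, unchanged means the same side of the threshold. For the diet changes of the members, which carry no test, it means a shift smaller than the gene's residual SD. When each library was left out in turn, 1610 were counted as unchanged, 61 lost a call, 6 gained one and 4 moved. None reversed among the called ones, but in set 13-21 cib (0.0422) and tsr (0.0637) were above 0 after quantile normalization. Over all alternatives the highest change in that set was 0.00444 for Act42A, 0.0497 for cib and 0.119 for tsr. Such changes of direction near 0 were counted as unchanged. Median-of-ratios scaling moved the median of all features in set 67-92 from 0.0288 to 0.159. Higher calls made up 63.4% of calls as deposited and 51.1% after quantile normalization.

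The 10 lower and 2 higher genes acting on actin became 32 lower with no filter, 3 and 1 at a mean of at least 5, 4 lower without set 67-92, 3 and 1 without set 49-54, and 6 and 1 with background and diet in place of 8 groups. The higher count was 1 after quantile normalization and 4 in the robust fit. With the spread of set 55-63 alone, its counts of 1 lower and 2 higher became 0 and 0 by limma (3 and 2 at an unadjusted p under 0.05), with the set's calls over all features at 74 lower and 284 higher. The 3 lower tubulins became 1 at a mean of at least 5, without set 49-54, without set 55-63 and with the background model. Over all features, 407 lower became 1870 with no filter, 128 at a mean of at least 5 and 228 with the background model, and 704 higher became 304 at a mean of at least 5, 451 without set 49-54 and 412 with the background model. The 7 member pairs became 3 after median-of-ratios scaling, 2 without set 67-92, 3 without set 13-21 and 1 without set 49-54. The cause of these shifts was not tested, beyond the smaller number of features or libraries in some.

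Leaving out each library gave 359 to 436 lower and 648 to 766 higher features, 7 to 11 lower and 2 to 3 higher genes acting on actin, 2 to 3 lower tubulins, 5 members with a more negative change in set 49-54 than in set 13-21, 17 to 20 of 20 changes below 0, 10 to 12 of 20 without overlap, 2 to 9 member pairs and 0 pairs with Hml or nimC1. Alternatives with libraries 67 and 83 and libraries 75 and 91 averaged in the correlations, and with quantile normalization and single libraries left out for the member pairs, were chosen after seeing the data.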
